A study of Mus musculus with 24 samples.

Results

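The liver makes most of the proteins that circulate in plasma as complement and as clotting factors. Transcripts of 40 such genes, 18 of complement and 22 of coagulation, were followed in isolated mouse hepatocytes. They were taken by gene symbol from a list of the plasma proteins of both systems, with complement and coagulation kept apart. All 40 were among the 55421 genes of the deposited tables, and all 40 were among the 13847 genes that passed the filter on low counts and were tested.

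Complement is a cascade of plasma proteases and binding proteins that marks and lyses targets. It is started by antibody-bound C1 (classical route), by mannose-binding lectins and their proteases (lectin route) or by spontaneous turnover of C3 (alternative route), and all routes meet at C3 before the terminal proteins C5 to C9 assemble into a pore in a membrane. Coagulation is a parallel cascade in which serine proteases, several of them dependent on vitamin K, activate one another until thrombin turns fibrinogen into fibrin. Inhibitors such as antithrombin restrain it, and plasmin dissolves the clot. Hepatocytes are the main source of nearly all of these proteins, and several of them are acute phase proteins, whose production changes with inflammation.

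The study asked whether rapamycin, an inhibitor of the mTOR kinase, changes how the old liver responds to a fatty diet. All animals were male C57BL/6J mice. They ate vehicle or rapamycin in capsules of eudragit (eRapa, at 42 ppm) from 4 months of age, and at 18 months the animals either stayed on normal diet (ND) or were moved to a high-fat diet (HFD, 60% of calories from fat) for 9 weeks. Hepatocytes were then isolated by perfusion with collagenase and sequenced, 1 library per animal, from 8 ND+veh, 7 HFD+veh and 9 HFD+eRapa animals. No group on normal diet with eRapa was studied, so the comparison of HFD+eRapa with ND+veh changes diet and drug together. That design cannot tell a reversal of the diet's effect from an effect of the drug alone.

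Depth was 17.7 to 25.9 M counts per library (M is 1000000). In counts per M counts scaled by edgeR's TMM factors (CPM), the 10 hepatocyte markers summed to 54587 to 155990.0 in ND+veh, 96349 to 162831 in HFD+veh and 49143 to 140307 in HFD+eRapa. RNA of other liver cells was also present, in unequal amounts. The 10 macrophage markers summed to 40.1 to 1218 CPM in ND+veh, 162 to 6052 CPM in HFD+veh and 15.8 to 1067 CPM in HFD+eRapa, and 5 of the 10 were higher in HFD+veh relative to ND+veh while 9 of the 10 were lower in HFD+eRapa relative to HFD+veh. Stellate cell markers summed to 32.0 to 255 CPM, 37.7 to 504 CPM and 21.8 to 108 CPM in the same order of groups, with 9 of 9 tested genes lower with eRapa on HFD, and bile duct cell (cholangiocyte) markers to 5.03 to 20.97 CPM, 14.0 to 368 CPM and 11.9 to 61.1 CPM, with 4 of 4 tested genes higher on HFD. Apart from the platelet marker Gp1bb in ND+veh, no marker in these lists was at 0 in every library of a group. Because of these shifts, each call below was also refitted with a score of the macrophage, lymphocyte and neutrophil markers, or of the endothelial, stellate cell and bile duct markers, as a covariate. In bulk libraries, fewer cells of a type and less RNA per cell cannot be told apart.

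The 40 genes covered a wide range of transcript levels. In fragments per kilobase and M fragments (FPKM), the unit that corrects for gene length and so lets genes be set beside one another, antithrombin (Serpinc1) was the most abundant in ND+veh at 3862 ± 329 FPKM (SD, n = 8). The fibrinogen chains Fga and Fgg followed at 2676 ± 475 FPKM and 2464 ± 382 FPKM, then the adhesive plasma protein vitronectin (Vtn) at 1489.6 ± 205 FPKM and C3, the central complement protein, at 1280.3 ± 321 FPKM. At the other end stood Masp1, a protease of the lectin route, at 21.5 ± 3.68 FPKM, protein S (Pros1), the cofactor of activated protein C, at 18.2 ± 5.17 FPKM, and factor XI (F11) at 15.2 ± 4.96 FPKM. The order was gradual. Of the 39 pairs of neighbours in it, 36 had overlapping ranges over the 8 ND+veh animals. Ranges did not overlap between Serpinc1 and Fga, between C8a and F13b, and between C2 and Masp1. The margin was narrow for C8a (lowest 99.6 FPKM) over F13b (highest 98.7) and for C2 (lowest 26.5) over Masp1 (highest 25.1).

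**Figure D1:**
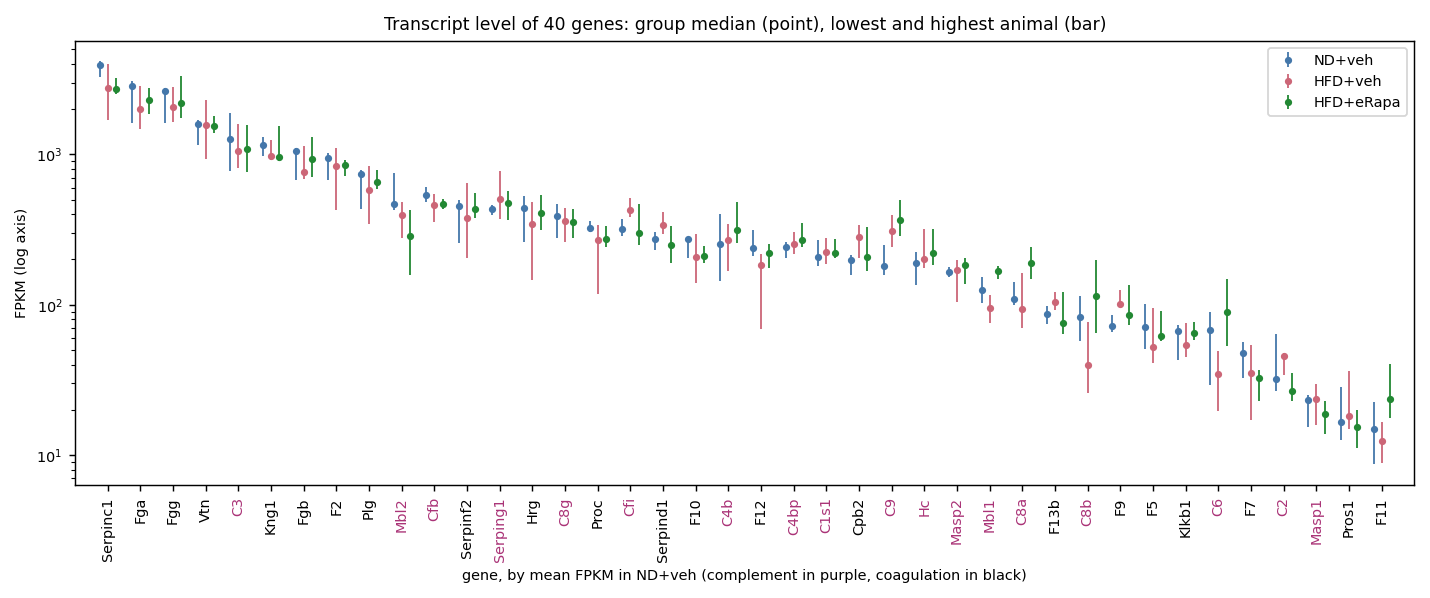
Transcript level of the 40 genes in FPKM (log axis), ordered by mean level in ND+veh, with the group median as a point and the lowest and highest animal as a bar. Levels fall gradually from Serpinc1, at a mean of 3862 FPKM in ND+veh, to F11, at 15.2, and the bars of the 3 groups overlap for most genes.

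As a share of all counts, the 18 complement genes took 1.43% ± 0.219 (SD, n = 8) in ND+veh, 1.47% ± 0.251 (n = 7) in HFD+veh and 1.54% ± 0.172 (n = 9) in HFD+eRapa. The 22 coagulation genes took 2.97% ± 0.279, 2.58% ± 0.489 and 2.80% ± 0.270. Both sets of shares overlapped between all groups, from 2.03% to 3.31% for coagulation in HFD+veh against 2.41% to 3.22% in ND+veh. No test was made on these summed shares.

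The diet alone was addressed by HFD+veh against ND+veh. HFD+veh hepatocytes had more C9, C5 (gene Hc), factor I (Cfi), factor IX (F9) and carboxypeptidase B2 (Cpb2) transcript than ND+veh hepatocytes, and less C6 and mannose-binding lectin A (Mbl1). A gene is termed called where the Benjamini-Hochberg adjusted p of edgeR's quasi-likelihood test over all 13847 genes was under 0.05. By that rule 5 of 18 complement genes (3 higher, 2 lower) and 2 of 22 coagulation genes (both higher) were called, beside 25.9% of all genes (16.0% higher and 9.86% lower). No complement or coagulation gene had groups that did not overlap, beside 2.44% of all genes. The median log2 fold change was 0.03 for complement, -0.20 for coagulation and 0.05 for all genes, and the median size of change regardless of sign was 0.26, 0.26 and 0.32.

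These counts moved when single libraries were left out or a marker covariate was added. The complement count was 3 without ND+veh replicate 1, ND+veh replicate 3 or HFD+veh replicate 6, and the coagulation count was 1 without ND+veh replicate 1 or HFD+veh replicate 6, 4 without HFD+eRapa replicate 2 and 6 without HFD+veh replicate 1. With the immune marker covariate 1 complement gene (C9) and 0 coagulation genes were called by edgeR. In that fit 3 coagulation genes (F9, Cpb2 and Serpind1) had an unadjusted p under 0.05, and DESeq2 called 2 without the covariate. Over all genes the edgeR count was 1202 with the covariate and 3584 without it. The log2 fold changes of the genes that lost their call with it were -0.45 for Mbl1 (-0.48 without the covariate), -0.77 for C6 (-0.87), 0.53 for Hc (0.45), 0.39 for Cfi (0.48), 0.37 for F9 (0.54) and 0.37 for Cpb2 (0.54).

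The drug on a fatty diet was addressed by HFD+eRapa against HFD+veh. HFD+eRapa hepatocytes had more C6, C8 alpha (C8a), C8 beta (C8b), Mbl1 and F11 transcript than HFD+veh hepatocytes, and less C2 and Pros1. Called were 5 of 18 complement genes (4 higher, 1 lower) and 2 of 22 coagulation genes (1 higher, 1 lower), beside 32.0% of all genes (10.9% higher and 21.1% lower). The groups did not overlap for 2 complement genes, C6 and Mbl1, and for 0 of 22 coagulation genes, beside 2.59% of all genes. The median log2 fold change was 0.09 for complement, 0.18 for coagulation and -0.04 for all genes. Of all called genes 1507 were higher and 2925 lower, a split that became 968 and 3205 when libraries were scaled by total counts alone. The coagulation count moved with single libraries, to 1 without HFD+veh replicate 3, 4 or 6, 4 without HFD+veh replicate 2, 5 without HFD+eRapa replicate 2 and 6 without HFD+veh replicate 1.

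The third comparison set HFD+eRapa beside ND+veh and shares its animals with the other comparisons. C9, C8a, Hc, Mbl1, C4b, C4 binding protein (C4bp), F11 and F9 were higher in HFD+eRapa and Mbl2 was lower. Called were 7 of 18 complement genes (6 higher, 1 lower) and 2 of 22 coagulation genes (both higher), beside 13.5% of all genes (6.93% higher and 6.54% lower). For 2 complement genes, C9 and Hc, and for 0 of 22 coagulation genes the groups did not overlap, beside 3.37% of all genes. The median log2 fold change was 0.24 for complement, 0.02 for coagulation and -0.03 for all genes. Of all called genes 959 were higher and 906 lower, against 639 and 1038 with scaling by total counts alone. The coagulation count fell to 1 without ND+veh replicate 1, 2, 3, 4 or 6, HFD+veh replicate 3 or 4, or HFD+eRapa replicate 2, 3 or 4.

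**Figure D2:**
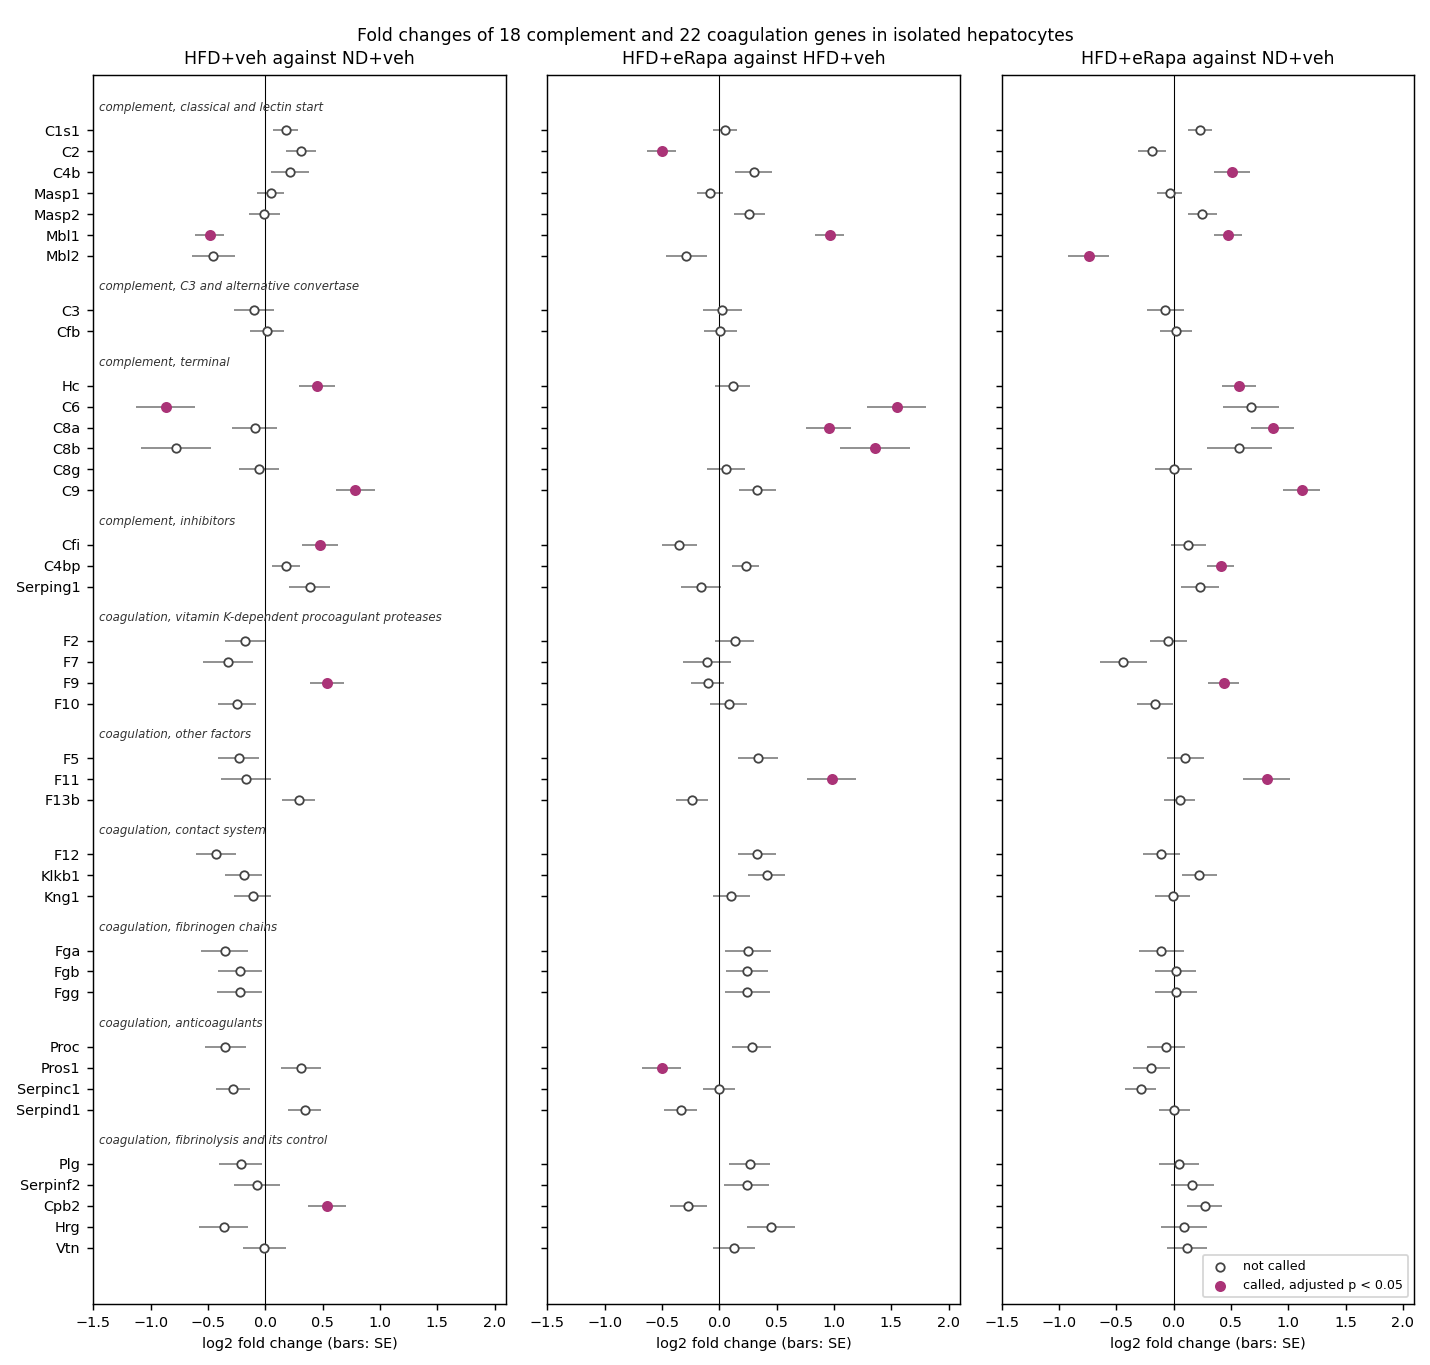
Log2 fold change (point) and SE (bar) of the 18 complement and 22 coagulation genes in the 3 comparisons, grouped by role, with called genes filled. The widest changes lie among the terminal complement genes, from -0.87 for C6 in HFD+veh against ND+veh to 1.54 for C6 in HFD+eRapa against HFD+veh, and most coagulation genes stay within 0.5 of 0.

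Over the 3 comparisons, 11 of 18 complement genes and 4 of 22 coagulation genes were called at least once. Of all genes, 25.9%, 32.0% and 13.5% were called in the single comparisons. The share of all genes called at least once was not computed, so both counts stand without a background. The other 7 complement genes (C1s1, Masp1, Masp2, C3, Cfb, C8g and Serping1) had log2 fold changes between -0.16 and 0.39 in every comparison. The other 18 coagulation genes had log2 fold changes between -0.44 and 0.45, and the lowest adjusted p among them was 0.0502, for Klkb1 in HFD+eRapa against HFD+veh. In HFD+veh against ND+veh, 16 of these 18 had a log2 fold change below 0 and 2 above. F9 and Cpb2, called higher there, are not among the 18. In HFD+eRapa against HFD+veh 4 were below 0 and 14 above, and in HFD+eRapa against ND+veh 8 and 10. These signs were not tested, and the genes share the same libraries.

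The terminal complement proteins held the widest changes. C6 (chr15:4727175-4814967, plus strand; coordinates are GRCm38), which joins C5b to begin the pore, ranged from 95.1 to 285 CPM in ND+veh (median 180.2), from 55.0 to 158 CPM in HFD+veh (median 100.5) and from 165 to 501 CPM in HFD+eRapa (median 279). Every HFD+eRapa animal lay above every HFD+veh animal, while ND+veh overlapped both groups. C6 was lower in HFD+veh relative to ND+veh (log2 fold change -0.87, SE 0.26, adjusted p = 0.0189) and higher in HFD+eRapa relative to HFD+veh (log2 fold change 1.54, SE 0.26, adjusted p = 2.63e-04). HFD+eRapa against ND+veh gave log2 fold change 0.68, SE 0.24, adjusted p = 0.0658, which did not pass in edgeR but did in DESeq2 (adjusted p = 0.0423). The rise with eRapa was called with either marker covariate (adjusted p = 0.00747 with immune markers and 0.00892 with endothelial, stellate cell and bile duct markers), and the fall on HFD was not called with the immune markers (log2 fold change -0.77, adjusted p = 0.124) or with the replicate block (-0.77, adjusted p = 0.0588).

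C8 is built of 3 chains from 3 genes. C8a and C8b encode the chains that insert into the membrane complex, and C8g encodes a lipocalin bound to C8 alpha. C8b ranged from 119 to 268 CPM in ND+veh (median 184), from 57.1 to 200.1 CPM in HFD+veh (median 95.1) and from 148 to 519.8 CPM in HFD+eRapa (median 291). All but 3 HFD+veh animals (replicates 1, 2 and 7) lay below the lowest ND+veh animal, and these 3 lay within its range. C8b was higher in HFD+eRapa relative to HFD+veh (log2 fold change 1.35, SE 0.31, adjusted p = 0.00261). The difference between HFD+veh and ND+veh did not pass in edgeR (log2 fold change -0.78, SE 0.31, adjusted p = 0.0621), and it was called lower by DESeq2 (adjusted p = 0.049), with libraries scaled by total counts (0.0308) and by limma on log2(FPKM + 1) (0.0213).

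C8a ranged from 304 to 544 CPM in ND+veh (median 412), from 241 to 665 CPM in HFD+veh (median 344) and from 541 to 1119 CPM in HFD+eRapa (median 755). The lowest HFD+eRapa animal lay just below the highest ND+veh animal, and 2 HFD+veh animals, replicates 1 and 7, overlapped the HFD+eRapa range. C8a was higher in HFD+eRapa relative to HFD+veh (log2 fold change 0.95, SE 0.20, adjusted p = 0.00133) and relative to ND+veh (log2 fold change 0.86, SE 0.19, adjusted p = 0.00271), and HFD+veh against ND+veh gave log2 fold change -0.09, SE 0.20, adjusted p = 0.760. C8g, the remaining chain, ranged from 223 to 505 CPM in ND+veh (median 398), from 270.4 to 498 CPM in HFD+veh (median 363) and from 284 to 493 CPM in HFD+eRapa (median 378). Its groups overlapped throughout, and its log2 fold change in HFD+eRapa against HFD+veh was 0.06 (SE 0.17, adjusted p = 0.824).

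The C8a and C8b changes moved with the marker scores, as did calls over all genes. In HFD+eRapa against HFD+veh calls over all genes numbered 4432, and 943 with the immune covariate. With the endothelial, stellate cell and bile duct covariate they numbered 794. In HFD+eRapa against HFD+veh, C8b fell to a log2 fold change of 0.85 with the immune covariate (adjusted p = 0.0571) and 0.69 with the endothelial, stellate cell and bile duct covariate (adjusted p = 0.126), and neither was called. C8a was 0.75 with the former (adjusted p = 0.0229) and 0.60 with the latter, which was not called (adjusted p = 0.0592). Against ND+veh, C8a was called with both.

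C9 (chr15:6445327-6498751, plus strand), the protein that polymerizes to form the pore, ranged from 286 to 535 CPM in ND+veh (median 361), from 466 to 876 CPM in HFD+veh (median 598) and from 593 to 1251 CPM in HFD+eRapa (median 726). Every HFD+eRapa animal lay above every ND+veh animal, and of the 7 HFD+veh animals 6 did. C9 was higher in HFD+veh relative to ND+veh (log2 fold change 0.79, SE 0.17, adjusted p = 0.00275) and higher in HFD+eRapa relative to ND+veh (log2 fold change 1.12, SE 0.16, adjusted p = 4.68e-05), and the difference between the HFD groups did not pass (log2 fold change 0.33, SE 0.16, adjusted p = 0.127). Both C9 calls held with each marker covariate and with each library left out.

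Hc (chr2:34983331-35061438, minus strand) encodes C5, whose cleavage begins the terminal pathway. Its level ran from 741 to 937 CPM in ND+veh (median 835), from 782 to 1601 CPM in HFD+veh (median 1010.0) and from 941 to 1767 CPM in HFD+eRapa (median 1072). All HFD+eRapa animals were above all ND+veh animals by a narrow margin, and 5 of 7 HFD+veh animals were. Hc was higher in HFD+eRapa relative to ND+veh (log2 fold change 0.57, SE 0.15, adjusted p = 0.0111) and higher in HFD+veh relative to ND+veh (log2 fold change 0.45, SE 0.16, adjusted p = 0.0379). The second of these calls was weak: it was lost without ND+veh replicate 1, 3, 4, 6, 7 or 8, or without HFD+veh replicate 1, 2, 6 or 7 (adjusted p up to 0.0874). It was also lost with the replicate block (log2 fold change 0.42, adjusted p = 0.0682), the immune marker covariate (0.53, 0.0521), only the groups compared (0.44, 0.0628), no filter on low counts (0.42, 0.102) and limma on FPKM (0.31, 0.1103). Limma on FPKM also ended the call against ND+veh (adjusted p = 0.0617).

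**Figure D3:**
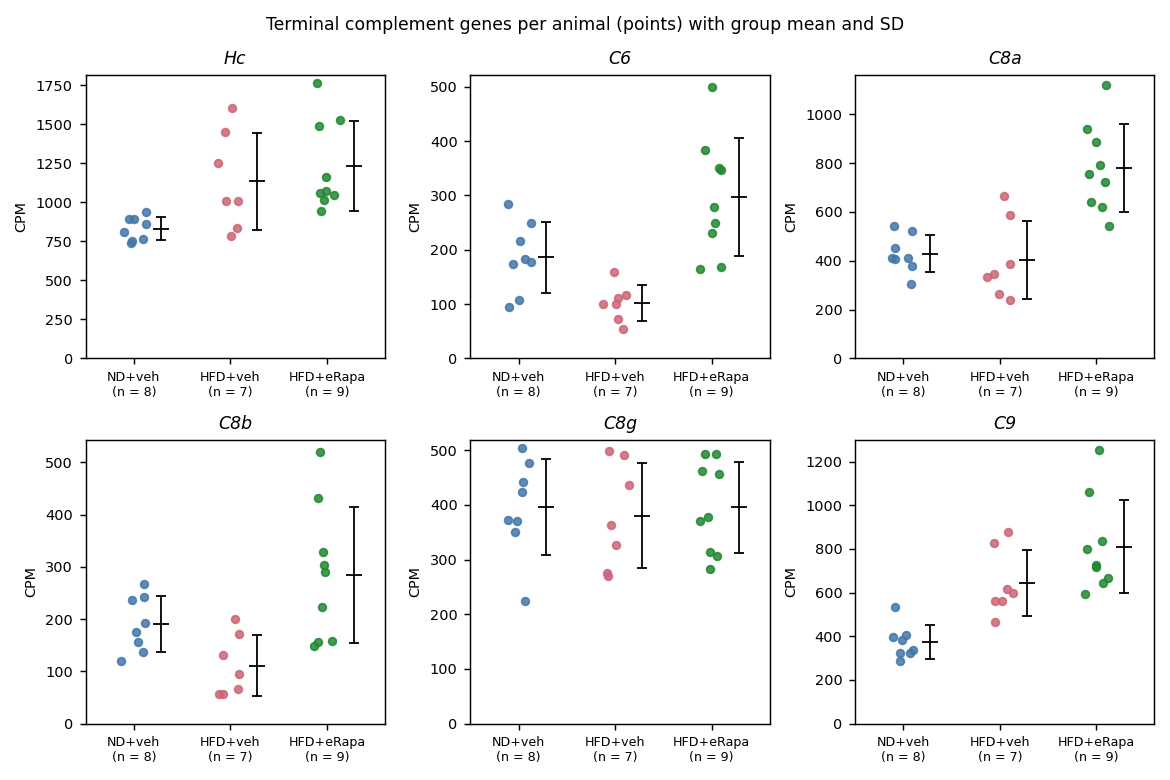
CPM of the 6 terminal complement genes in each animal (points), with the group mean (dash) and SD (bar) beside them. C6 shows HFD+veh animals at 55.0 to 158 CPM below all HFD+eRapa animals, C9 shows HFD+eRapa animals all above the ND+veh animals, and C8g shows overlapping groups.

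C8a and C8b lie on opposite strands of chromosome 4 with their starts 110.1 kb apart. RefSeq promoter windows (GRCm38.p6), 250 bases before and 50 after the start, were found for 31 of the 40 genes, as 33 windows. Those of the 5 genes called higher in HFD+eRapa relative to HFD+veh are shown 5′ to 3′ along the gene's strand, so that the letters shared and not shared by genes that rose in the same comparison can be read. Capitals mark every match, on either strand, to the 5 sets of letters searched: TTCNNNGAA (STAT type), GAAANNGAA (interferon regulatory factor type), TTNCNNAA (C/EBP type), GTTAAT (HNF1 type) and GGNNTTTCC (NF-kB type).
C6, chr15:4726960-4727259, plus strand: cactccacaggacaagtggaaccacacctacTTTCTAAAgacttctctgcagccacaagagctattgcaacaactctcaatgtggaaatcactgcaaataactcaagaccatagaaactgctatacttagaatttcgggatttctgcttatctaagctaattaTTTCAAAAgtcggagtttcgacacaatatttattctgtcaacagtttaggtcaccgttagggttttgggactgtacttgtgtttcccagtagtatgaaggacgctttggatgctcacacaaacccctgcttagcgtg
C8a, chr4:104876349-104876648, minus strand: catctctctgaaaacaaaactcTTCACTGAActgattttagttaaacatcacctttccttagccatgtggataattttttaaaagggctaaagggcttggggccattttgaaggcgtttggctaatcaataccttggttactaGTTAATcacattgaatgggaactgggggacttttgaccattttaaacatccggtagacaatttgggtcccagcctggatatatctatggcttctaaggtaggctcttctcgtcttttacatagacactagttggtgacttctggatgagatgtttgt
C8b, chr4:104766067-104766366, plus strand: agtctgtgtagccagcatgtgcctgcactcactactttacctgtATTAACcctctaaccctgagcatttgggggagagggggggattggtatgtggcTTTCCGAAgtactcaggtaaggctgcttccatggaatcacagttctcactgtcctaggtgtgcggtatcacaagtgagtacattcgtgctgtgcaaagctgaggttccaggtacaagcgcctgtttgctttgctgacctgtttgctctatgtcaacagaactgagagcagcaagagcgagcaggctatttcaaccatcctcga
Mbl1, chr14:41151206-41151505, plus strand: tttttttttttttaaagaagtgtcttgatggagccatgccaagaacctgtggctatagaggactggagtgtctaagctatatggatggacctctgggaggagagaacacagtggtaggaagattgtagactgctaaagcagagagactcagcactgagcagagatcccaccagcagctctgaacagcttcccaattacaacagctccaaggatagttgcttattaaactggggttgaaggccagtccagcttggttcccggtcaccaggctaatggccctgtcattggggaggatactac
F11, chr8:45261982-45262281, minus strand: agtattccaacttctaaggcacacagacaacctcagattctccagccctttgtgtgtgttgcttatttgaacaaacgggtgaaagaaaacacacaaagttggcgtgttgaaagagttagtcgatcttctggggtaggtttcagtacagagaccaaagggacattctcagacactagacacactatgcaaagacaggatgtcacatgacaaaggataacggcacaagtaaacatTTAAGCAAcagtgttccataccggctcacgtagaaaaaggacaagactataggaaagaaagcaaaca
C8a held GTTAAT at bases 144 to 149 of its window and C8b held it on the other strand, as ATTAAC, at bases 45 to 50. C8a also held 1 TTCNNNGAA, and TTNCNNAA occurred 2 times in C6, 1 time in C8b and 1 time in F11. No marked matches overlapped one another, and these letters did not occur in the Mbl1 window. GTTAAT was in 9 of the 33 windows (27.3%) and in 7.13% of all 32544 distinct windows of the table. TTNCNNAA was in 60.6% against 40.7%, TTCNNNGAA in 21.2% against 8.33%, GAAANNGAA in 3.03% against 8.53%, and GGNNTTTCC in 0 of 33 windows against 5.83%. These matches describe letters only.

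The start of the classical and lectin routes held the pair of mannose-binding lectins, which recognize sugars on microbes and went in opposite directions in HFD+eRapa against ND+veh. Mbl1 (chr14:41151458-41159601, plus strand) ranged from 110.1 to 206 CPM in ND+veh (median 169), from 88.5 to 168 CPM in HFD+veh (median 116) and from 197 to 273 CPM in HFD+eRapa (median 238). Every HFD+eRapa animal lay above every HFD+veh animal, and 6 of 7 HFD+veh animals lay below all ND+veh animals but the lowest. Mbl1 was the only one of the 40 genes called in all 3 comparisons: it was lower in HFD+veh relative to ND+veh (log2 fold change -0.48, SE 0.13, adjusted p = 0.0108), higher in HFD+eRapa relative to HFD+veh (log2 fold change 0.96, SE 0.13, adjusted p = 2.89e-05) and higher in HFD+eRapa relative to ND+veh (log2 fold change 0.48, SE 0.12, adjusted p = 0.00909). The rise with eRapa was called with either marker covariate, and the fall on HFD was not called with the immune markers, at a log2 fold change of -0.45 (adjusted p = 0.0578).

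Mbl2 (chr19:30232942-30239687, plus strand), encoding mannose-binding lectin C, ranged from 409 to 653 CPM in ND+veh (median 456), from 272 to 417 CPM in HFD+veh (median 392) and from 144 to 499 CPM in HFD+eRapa (median 289). Of the 9 HFD+eRapa animals, 8 lay below the lowest ND+veh animal, and replicate 2 lay within the ND+veh range. Mbl2 was lower in HFD+eRapa relative to ND+veh (log2 fold change -0.74, SE 0.18, adjusted p = 0.00565). Neither of the other comparisons passed for Mbl2, with log2 fold changes of -0.45 (adjusted p = 0.0759) on HFD and -0.29 (adjusted p = 0.236) with eRapa, although the former was called in a fit of only the groups compared (adjusted p = 0.0369).

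C2, the protease that pairs with C4b in the C3 convertase of both routes, ranged from 45.6 to 86.7 CPM in ND+veh (median 53.5), from 61.1 to 88.9 CPM in HFD+veh (median 69.5) and from 39.6 to 63.3 CPM in HFD+eRapa (median 48.1). All but 1 of the HFD+eRapa animals lay below the HFD+veh range, and both groups overlapped ND+veh. C2 was lower in HFD+eRapa relative to HFD+veh (log2 fold change -0.50, SE 0.13, adjusted p = 0.00511), and the call held with both marker covariates. Exons of C2 share 42.8% of their bases with the readthrough gene Gm20547, so that reads there can be lost from the counts. On log2(FPKM + 1) in limma, a scale added after the data were seen, C2 was also called lower.

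The gene C4b encodes complement C4, whose cleaved form is the partner of C2. Its transcript was called higher in HFD+eRapa relative to ND+veh. That call was lost without ND+veh replicate 1, 3, 7 or 8 or HFD+eRapa replicate 9 (adjusted p up to 0.0601). It was also lost with scaling by total counts, with no filter, with the replicate block and in limma on FPKM. With endothelial, stellate cell and bile duct markers as covariate it was lost too (log2 fold change 0.39, adjusted p = 0.0648). The near copy of this gene, C4a, added after the data were seen, was at from 7.15 to 25.7 CPM in ND+veh (median 12.5), from 5.40 to 24.1 CPM in HFD+veh (median 16.3) and from 11.8 to 101 CPM in HFD+eRapa (median 39.9), and reads of the copies may have been split between them. C1s1, the C1s protease, and the lectin proteases Masp1 and Masp2 were called in no comparison, with log2 fold changes from -0.08 to 0.26, although a fit of only the groups compared called Masp2 higher in HFD+eRapa relative to ND+veh (adjusted p = 0.038). Of the exonic bases of Masp2, 54.9% overlap Tardbp on the other strand, and whether the counting used strand is not given in the sources used here.

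C3 itself and factor B (Cfb), the protease of the alternative convertase, were called in no comparison. C3 ranged from 4443 to 7993 CPM in ND+veh (median 6529), from 4108 to 8881 CPM in HFD+veh (median 5860.2) and from 4735 to 7563 CPM in HFD+eRapa (median 6282), a band that overlapped in all groups, with log2 fold changes of -0.10 on HFD (SE 0.17, adjusted p = 0.713), 0.02 with eRapa on HFD (SE 0.17, adjusted p = 0.933) and -0.07 in HFD+eRapa against ND+veh (SE 0.16, adjusted p = 0.841). Cfb had 0.01, 0.01 and 0.02 in the same comparisons, and 79.5% of its exonic bases are shared with Gm20547. In edgeR 0 of the 2 genes had an unadjusted p under 0.05 in any comparison, and DESeq2 called 0 of them.

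Among the inhibitors, Cfi encodes factor I, the protease that cleaves C3b and C4b. It ranged from 574 to 824 CPM in ND+veh (median 643), from 735 to 1219.9 CPM in HFD+veh (median 878) and from 525 to 1244 CPM in HFD+eRapa (median 734). HFD+veh animals lay high, and HFD+eRapa animals spread over both other groups. Cfi was higher in HFD+veh relative to ND+veh (log2 fold change 0.48, SE 0.16, adjusted p = 0.0304) and did not pass in HFD+eRapa against HFD+veh (log2 fold change -0.35, SE 0.15, adjusted p = 0.0863), where total-count scaling and limma on FPKM called it lower (adjusted p = 0.00495 and 0.00544). The first call was lost with the immune covariate (log2 fold change 0.39, adjusted p = 0.182), with the endothelial, stellate cell and bile duct covariate (0.48, 0.0531), with the replicate block (0.48, 0.0607), with no filter (0.44, 0.0817) and without any one of ND+veh replicates 1, 2, 3 or 4 or HFD+veh replicates 1, 3, 6 or 7.

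C4bp, a cofactor of factor I that binds C4b, ranged from 507 to 739.9 CPM in ND+veh (median 609), from 563 to 897 CPM in HFD+veh (median 671) and from 644 to 1152 CPM in HFD+eRapa (median 753). It was higher in HFD+eRapa relative to ND+veh (log2 fold change 0.41, SE 0.12, adjusted p = 0.0183), with overlapping groups, and lost the call without ND+veh replicate 1 or 4 (adjusted p up to 0.0553), with no filter (0.0514) and in limma on FPKM (0.0816). The C1 inhibitor gene Serping1 had log2 fold changes of 0.39, -0.16 and 0.23 in the 3 comparisons and was called in none.

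In coagulation, 1 of the 4 vitamin K-dependent procoagulant proteases was called. Factor IX (F9, chrX:59999464-60030759, plus strand), whose loss causes hemophilia B, ranged from 185 to 259 CPM in ND+veh (median 193), from 243 to 377 CPM in HFD+veh (median 296) and from 217 to 475 CPM in HFD+eRapa (median 267). All but 1 of the ND+veh animals lay below the lowest HFD+veh animal. F9 was higher in HFD+veh relative to ND+veh (log2 fold change 0.54, SE 0.15, adjusted p = 0.0117) and higher in HFD+eRapa relative to ND+veh (log2 fold change 0.44, SE 0.14, adjusted p = 0.0356), with -0.10 between the HFD groups (SE 0.14, adjusted p = 0.614). The rise on HFD was not called with immune markers as covariate (log2 fold change 0.37, adjusted p = 0.129), and the second call was lost without ND+veh replicate 1, 2, 3, 4 or 6, HFD+veh replicate 3 or 4, or HFD+eRapa replicate 2, 3 or 4, with no filter, with the replicate block and in limma on FPKM (adjusted p up to 0.0902).

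F2, which encodes prothrombin, ranged from 1347 to 2168 CPM in ND+veh (median 1958), from 833 to 2524 CPM in HFD+veh (median 1734) and from 1563 to 1928 CPM in HFD+eRapa (median 1803). The groups overlapped, and its log2 fold changes were -0.18, 0.13 and -0.04 (SE 0.17, 0.17 and 0.16), with adjusted p of 0.466, 0.583 and 0.907. Factor VII (F7), which with tissue factor starts clotting, and factor X (F10), the protease that activates prothrombin, lie 11.3 kb apart on chromosome 8 and were called in no comparison. F7 reached a log2 fold change of -0.44 in HFD+eRapa against ND+veh (adjusted p = 0.170), the lowest of the coagulation genes in that comparison, and was called lower there with either marker covariate and in a fit of only the groups compared. With endothelial, stellate cell and bile duct markers as covariate F7 was also called lower in HFD+eRapa relative to HFD+veh (log2 fold change -0.61, adjusted p = 0.0176).

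F11 (chr8:45241174-45262031, minus strand), a protease that activates factor IX, was the least abundant of the 40 in ND+veh and ranged from 22.7 to 62.0 CPM in ND+veh (median 40.1), from 21.9 to 46.6 CPM in HFD+veh (median 35.0) and from 46.4 to 114 CPM in HFD+eRapa (median 58.9). All but 1 of the HFD+eRapa animals lay above the HFD+veh range, and the group overlapped ND+veh. It was higher in HFD+eRapa relative to HFD+veh (log2 fold change 0.98, SE 0.22, adjusted p = 0.00218) and relative to ND+veh (log2 fold change 0.81, SE 0.21, adjusted p = 0.00853). Against HFD+veh the change was 0.54 with immune markers as covariate (adjusted p = 0.0881) and 0.55 with endothelial, stellate cell and bile duct markers (adjusted p = 0.153), and neither was called. In that comparison calls over all genes also fell with either covariate. Against ND+veh F11 was called with both.

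Of the other factors, factor V (F5), the cofactor of factor X, had log2 fold changes of -0.23, 0.34 and 0.10, and F13b, the carrier chain of the fibrin-linking factor XIII, of 0.29, -0.24 and 0.05. Total-count scaling and limma on FPKM called F13b lower with eRapa on HFD (adjusted p = 0.0239 and 0.022). The contact system is made of factor XII (F12), plasma prekallikrein (Klkb1) and kininogen (Kng1), the source of bradykinin. In HFD+veh against ND+veh these 3 had values of -0.43, -0.19 and -0.11, and in HFD+eRapa against HFD+veh of 0.32, 0.41 and 0.10. In the main edgeR fit 0 of the 3 was called, with F12 in the first and Klkb1 in the second at an unadjusted p under 0.05, and DESeq2 called 0. F12 was called lower in the first with total-count scaling (adjusted p = 0.0447) and by limma on FPKM (0.037), and Klkb1 higher in the second with total-count scaling (0.041) and the replicate block (0.0406). Klkb1 shares 43.2% of its exonic bases with Gm45753.

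The 3 fibrinogen chains lie together on chromosome 3, where Fga starts 18.4 kb from Fgg and 23.8 kb from Fgb. Fga ranged from 2619 to 6289.9 CPM in ND+veh (median 5975), from 2803 to 6567 CPM in HFD+veh (median 4068) and from 3711 to 6796 CPM in HFD+eRapa (median 4915). Fgb ranged from 2243 to 4814 CPM in ND+veh (median 4509.9), from 2559.7 to 5184 CPM in HFD+veh (median 3052) and from 2852 to 6577 CPM in HFD+eRapa (median 4138). Fgg ranged from 2092 to 4746 CPM in ND+veh (median 4414), from 2426 to 5040.1 CPM in HFD+veh (median 3493) and from 2893 to 6728 CPM in HFD+eRapa (median 3843). The groups overlapped for each chain, and 1 animal, ND+veh replicate 4, was lowest of its group in all 3. That library also had the highest TMM factor of the 24 (1.295), which lowers each of its CPM values. Whether this scaling accounts for its low fibrinogen values was not tested. In HFD+veh against ND+veh the log2 fold changes of Fga, Fgb and Fgg were -0.35 (SE 0.21, adjusted p = 0.204), -0.22 (SE 0.19, adjusted p = 0.398) and -0.22 (SE 0.20, adjusted p = 0.417), and without ND+veh replicate 4 they were -0.49, -0.35 and -0.35 (adjusted p = 0.0660, 0.163 and 0.171). With eRapa on HFD they were 0.25, 0.24 and 0.24 (adjusted p = 0.363, 0.336 and 0.350), and against ND+veh -0.11, 0.02 and 0.02. By edgeR 0 of the 3 chains had an unadjusted p under 0.05 in any comparison, and DESeq2 called 0.

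The anticoagulant genes were 4. Pros1 ranged from 42.7 to 79.5 CPM in ND+veh (median 57.4), from 55.4 to 120.0 CPM in HFD+veh (median 64.9) and from 39.1 to 73.1 CPM in HFD+eRapa (median 51.1). Of the 9 HFD+eRapa animals, 7 lay below the HFD+veh median, with overlap. Pros1 was lower in HFD+eRapa relative to HFD+veh (log2 fold change -0.50, SE 0.17, adjusted p = 0.0251). With the marker scores it was not called. The log2 fold change was -0.09 with immune markers (adjusted p = 0.749) and -0.06 with endothelial, stellate cell and bile duct markers (adjusted p = 0.868). Calls over all genes also fell with either score in that comparison. The Pros1 call was lost without HFD+veh replicate 3, 4 or 6 (adjusted p up to 0.148), with only the groups compared, with the replicate block and in limma on FPKM.

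Antithrombin, the main inhibitor of thrombin and factor X and the product of Serpinc1, ranged from 1599.5 to 2659 CPM in ND+veh (median 2438), from 1152 to 2777 CPM in HFD+veh (median 1935) and from 1619.7 to 2192 CPM in HFD+eRapa (median 1936). Its log2 fold changes were -0.28 (SE 0.15, adjusted p = 0.153) on HFD, -0.00 (SE 0.14, adjusted p = 0.988) with eRapa on HFD and -0.29 (SE 0.14, adjusted p = 0.185) against ND+veh, and it was called lower on HFD and against ND+veh when libraries were scaled by total counts and on the FPKM scale, and against ND+veh with the endothelial, stellate cell and bile duct covariate. Exons of Serpinc1 share 34.4% of their bases with Zbtb37 on the other strand. Protein C (Proc) had -0.35 on HFD and 0.28 with eRapa, and heparin cofactor II (Serpind1), another thrombin inhibitor, 0.34 and -0.34. Neither was called in the main edgeR fit or by DESeq2. Serpind1 was called higher on HFD and lower with eRapa on HFD with total-count scaling (adjusted p = 0.0207 and 0.00317), with the endothelial, stellate cell and bile duct covariate (0.0337 and 0.0417) and by limma on FPKM (0.0345 and 0.00479), and limma called Proc lower on HFD (0.0469).

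Fibrinolysis was represented by plasminogen (Plg) and by proteins that hold it back or bind it. Plg ranged from 1271 to 2236 CPM in ND+veh (median 2034), from 925 to 2719 CPM in HFD+veh (median 1651) and from 1662 to 2164 CPM in HFD+eRapa (median 2036), with overlapping groups and log2 fold changes of -0.22, 0.26 and 0.05 (SE 0.18, 0.18 and 0.17, adjusted p = 0.399, 0.272 and 0.902). Cpb2, which encodes an enzyme that trims fibrin so that plasmin binds it less, ranged from 207 to 319.8 CPM in ND+veh (median 275), from 276 to 518 CPM in HFD+veh (median 380.3) and from 229 to 579 CPM in HFD+eRapa (median 324). All but 1 of the HFD+veh animals lay above the highest ND+veh animal. Cpb2 was higher in HFD+veh relative to ND+veh (log2 fold change 0.54, SE 0.16, adjusted p = 0.0195) and was not called with immune markers (log2 fold change 0.37, adjusted p = 0.194) or with endothelial, stellate cell and bile duct markers (0.48, adjusted p = 0.0535) as covariate, nor without ND+veh replicate 1 or HFD+veh replicate 6. With eRapa on HFD it was called lower with total-count scaling (adjusted p = 0.0252) and by limma on FPKM (0.0287). The plasmin inhibitor Serpinf2, histidine-rich glycoprotein (Hrg) and Vtn were called in no comparison, with log2 fold changes from -0.36 to 0.45.

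**Figure D4:**
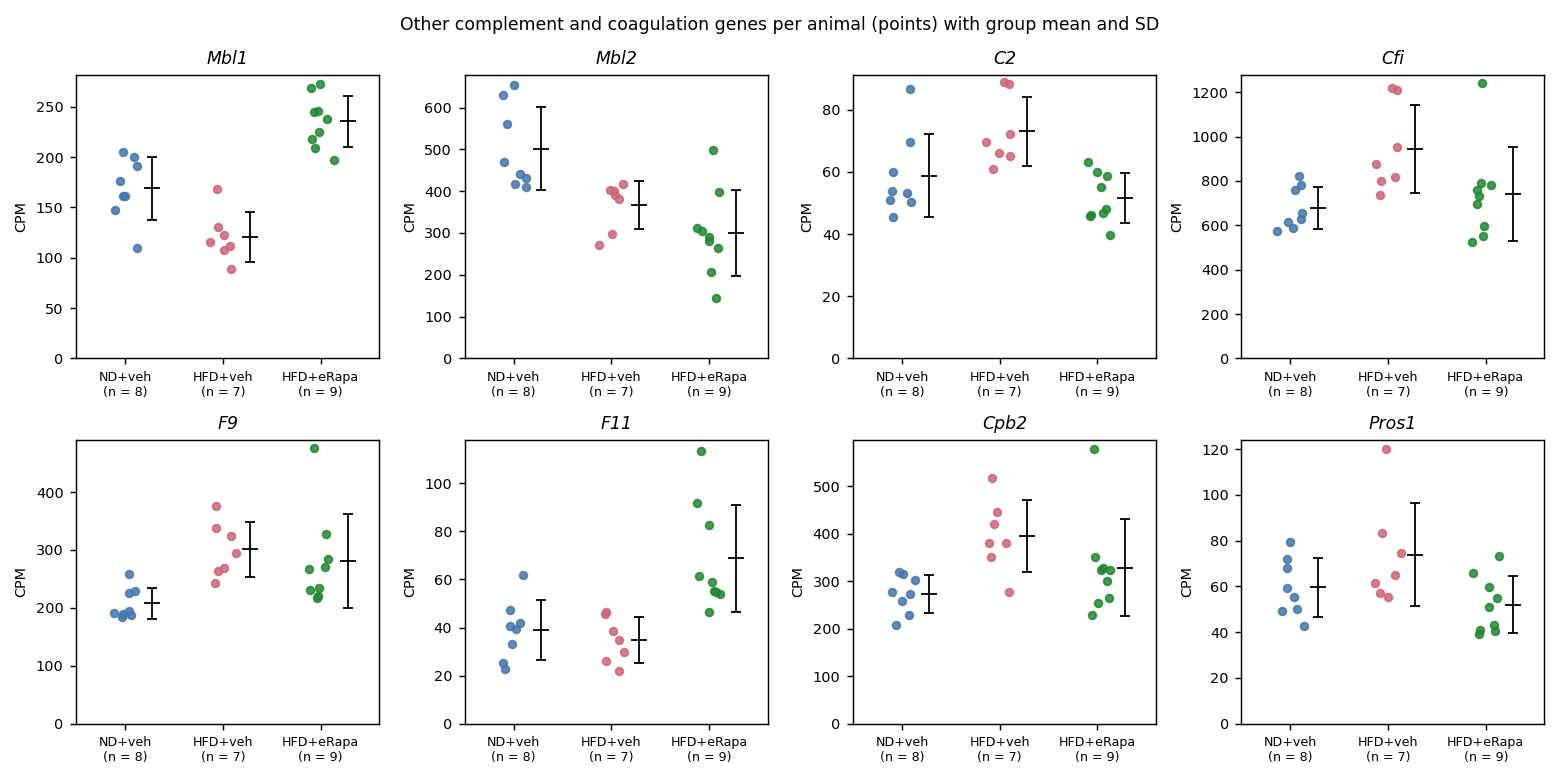
CPM of 8 further genes that were called in at least 1 comparison, in each animal (points), with the group mean (dash) and SD (bar) beside them. Mbl1 of the HFD+eRapa animals (197 to 273 CPM) lies above that of all HFD+veh animals, F11 is highest in HFD+eRapa, and HFD+eRapa replicate 2 stands far above its group for Cfi and Cpb2.

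Other genes of these pathways were listed beside the 40, 34 of complement and 35 of coagulation, many of them made by other cells or acting as receptors. Of 29 tested complement genes, 8 were higher and 2 lower in HFD+veh relative to ND+veh, 2 were higher and 14 lower in HFD+eRapa relative to HFD+veh, and 2 were higher and 1 lower in HFD+eRapa relative to ND+veh, or 34.5%, 55.2% and 10.3% called. The 8 and the 34.5% include Cfd, which passed the filter on low counts through the HFD+eRapa libraries. That Cfd call between HFD+veh and ND+veh is not relied on here. Of 26 tested coagulation genes the counts were 8 higher and 3 lower, 3 higher and 9 lower, and 2 higher and 1 lower, or 42.3%, 46.2% and 11.5%. Of all genes 25.9%, 32.0% and 13.5% were called in these comparisons.

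Cfd, encoding factor D (adipsin), the protease that cleaves factor B to form the alternative convertase, had the largest fold change of the listed genes with eRapa. It had 1 to 7 counts in each ND+veh library (32 in all 8), 2 to 38 in each HFD+veh library and 362 to 1243 in each HFD+eRapa library, or from 0.0315 to 0.314 CPM in ND+veh (median 0.230), from 0.0843 to 1.67 CPM in HFD+veh (median 0.626) and from 20.2 to 65.7 CPM in HFD+eRapa (median 45.2). All HFD+eRapa animals stood above all animals of both other groups. Cfd was higher in HFD+eRapa relative to HFD+veh (log2 fold change 5.79, SE 0.43, adjusted p = 1.43e-08) and relative to ND+veh (log2 fold change 7.77, SE 0.46, adjusted p = 1.48e-10). It passed the filter on low counts through the HFD+eRapa libraries and did not pass it in a fit of only ND+veh and HFD+veh, so no test is given between these 2 groups. Factor D is known as a product of fat cells, and 4 adipocyte genes chosen after its values were seen (Adipoq, Plin1, Lep and Retn) had at most 4 counts in any library. Which cells the Cfd transcript came from was not tested. For Cfb, the substrate of factor D, HFD+eRapa against HFD+veh gave a log2 fold change of 0.01 (SE 0.14).

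The macrophage markers given above had a median log2 fold change of 2.27 on HFD and -2.99 with eRapa on HFD, and are set here beside the called receptor and binding protein genes of complement. The anaphylatoxin receptor genes C3ar1 and C5ar1 rose on HFD by 3.47 (SE 0.96, adjusted p = 0.0134) and 2.91 on the log2 scale, and the integrin genes Itgax and Itgb2, which encode chains of complement receptors on leukocytes, by 3.86 and 2.75. With eRapa on HFD, C3ar1, Itgax and Cd55, a membrane inhibitor of the convertases, fell, with log2 fold changes of -3.57, -3.42 and -2.21. The collectin genes Colec10 and Colec11, lectin-route starters, fell in the same comparison, with log2 fold changes of -2.30 (SE 0.50, adjusted p = 0.00224) and -2.08 (SE 0.42, adjusted p = 0.00116), and Colec11 was also lower in HFD+eRapa relative to ND+veh (log2 fold change -1.40, SE 0.40, adjusted p = 0.0212). C1ra, the partner protease of C1s, was lower in HFD+veh relative to ND+veh (log2 fold change -0.50, SE 0.16, adjusted p = 0.0231), and Cd59b, an inhibitor of the pore, was higher in HFD+eRapa relative to ND+veh (log2 fold change 0.50, SE 0.15, adjusted p = 0.0267). In HFD+eRapa against ND+veh, 0 of 10 macrophage and 5 of 9 stellate cell markers were called (medians -0.44 and -1.63), the latter 5 lower. The part of other cells in these values was not tested.

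Among the other coagulation genes, Serpine2, which encodes a thrombin inhibitor, ranged from 16.1 to 37.5 CPM in ND+veh (median 23.8), from 2.87 to 13.4 CPM in HFD+veh (median 6.36) and from 8.21 to 39.1 CPM in HFD+eRapa (median 16.2). Every HFD+veh animal lay below every ND+veh animal. Serpine2 was lower in HFD+veh relative to ND+veh (log2 fold change -1.81, SE 0.34, adjusted p = 9.04e-04) and higher in HFD+eRapa relative to HFD+veh (log2 fold change 1.46, SE 0.33, adjusted p = 0.00262). Fgl1, a fibrinogen-like protein secreted by hepatocytes, ranged from 127 to 308 CPM in ND+veh (median 183), from 194 to 471 CPM in HFD+veh (median 281) and from 269 to 864 CPM in HFD+eRapa (median 458) and was higher in HFD+eRapa relative to ND+veh (log2 fold change 1.37, SE 0.23, adjusted p = 1.97e-04), as was Serpina10, the inhibitor of factor X that works with protein Z (log2 fold change 0.41, SE 0.12, adjusted p = 0.0182).

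The 10 sinusoidal endothelial markers summed to 88.1 to 494 CPM in ND+veh, 135 to 825 CPM in HFD+veh and 73.6 to 392 CPM in HFD+eRapa. Of these markers 1 was higher on HFD (median log2 fold change of the list 0.69). With eRapa on HFD 10 were lower (median -1.35). Stellate cell markers had medians of 0.60 and -2.11 in these comparisons. In HFD+eRapa against ND+veh, 0 of 10 endothelial and 5 of 9 stellate cell markers were called (medians -0.66 and -1.63), the latter 5 lower. The part of these cells and of macrophages in the values that follow was not tested. Vwf, which carries factor VIII, rose on HFD by 2.72 on the log2 scale (SE 0.52, adjusted p = 0.00101) and fell with eRapa on HFD (log2 fold change -2.21, SE 0.49, adjusted p = 0.00222). F13a1, Plau and Plaur, the latter pair encoding urokinase and its receptor, rose on HFD by 4.16, 2.75 and 2.34 (SE 1.01, 0.79 and 0.68). Their medians in ND+veh were only 0.138, 0.672 and 0.318 CPM, and the groups overlapped. The thrombin receptor gene F2r rose on HFD by 0.81. Tfpi, an inhibitor of the tissue factor route, Procr, the protein C receptor, and Plaur fell with eRapa on HFD, with log2 fold changes of -2.55, -2.51 and -2.54. Adamts13, the protease that cuts von Willebrand factor, was low throughout, at from 0.738 to 4.09 CPM in ND+veh (median 2.01), from 0.835 to 3.52 CPM in HFD+veh (median 1.63) and from 0.316 to 1.00 CPM in HFD+eRapa (median 0.507), and was lower in HFD+eRapa relative to HFD+veh (log2 fold change -1.94, SE 0.35, adjusted p = 5.45e-04) and relative to ND+veh (log2 fold change -2.09, SE 0.35, adjusted p = 2.14e-04).

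**Figure D5:**
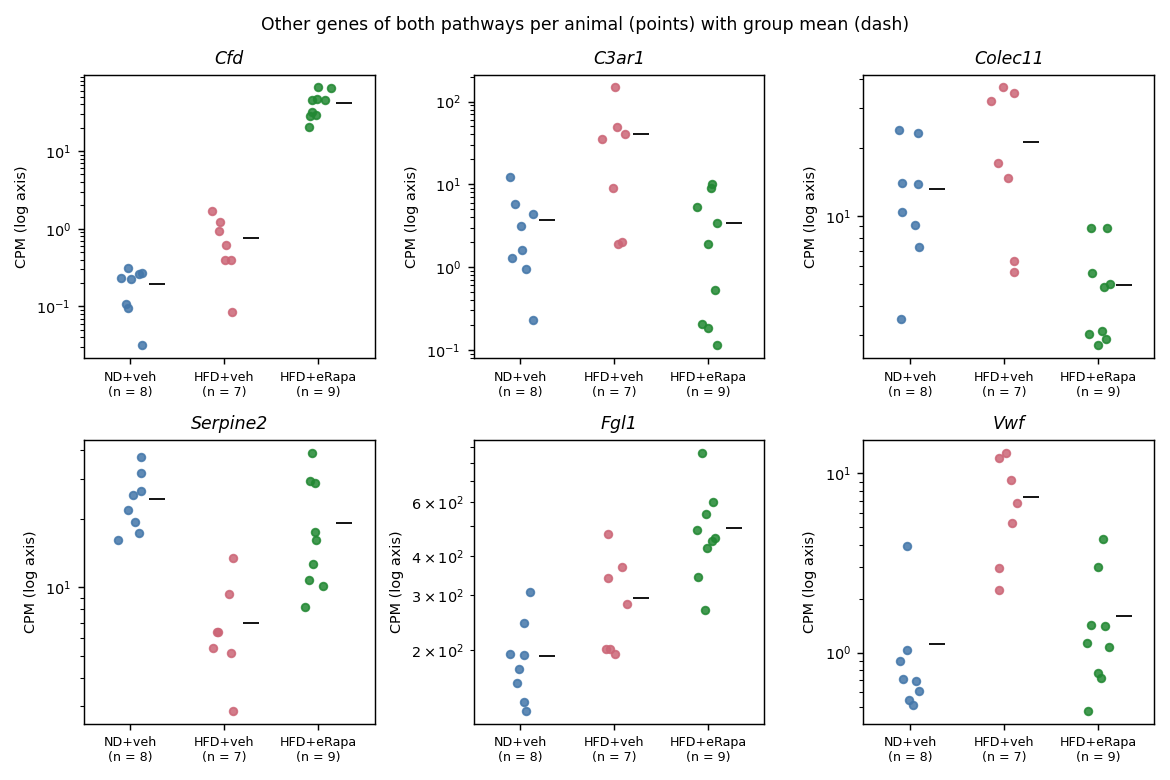
CPM (log axis) of 6 genes of the pathways outside the 40, in each animal (points), with the group mean as a dash. Cfd of the 9 HFD+eRapa animals lies at 20.2 to 65.7 CPM, above all other animals, Serpine2 is lowest in HFD+veh, and C3ar1 and Vwf are highest in HFD+veh.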

How the data were processed

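RNA was sequenced from hepatocytes of 24 mice, grouped by the sample labels. The authors aligned reads with STAR to mm10 with Gencode M23, filtered them with SAMtools 1.1.0, and made the deposited raw counts per gene with HTSeq 0.11.2 and the deposited FPKM values with Cufflinks. Comparisons within a gene used the counts, and levels between genes used FPKM.

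Counts were tested with edgeR 4.0.16 in R 4.3.3 (filterByExpr, TMM, robust glmQLFit, glmQLFTest) in 1 fit of all 24 libraries. P-values were adjusted by Benjamini-Hochberg over 13847 genes, and the fit was tested on simulated data. CPM used TMM-scaled library sizes. SE is the size of the log2 fold change over the square root of F. Alternatives were DESeq2 1.42.0, other scalings, no filter, fewer groups, a replicate block, marker covariates, each library left out, and, chosen after seeing the data, limma 3.58.1 on log2(FPKM + 1) for genes with a mean FPKM of at least 1.

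Coordinates came from Gencode M21 (GRCm38, the assembly of mm10), in which all 40 identifiers matched. The 40 genes and the other lists were chosen with earlier results of these data known. Full values went to called genes, at most 6 per pathway and comparison by p, and always to C3, Hc, C9, F2, fibrinogen, Plg and Serpinc1. Of the other pathway genes, up to 6 called genes per list and comparison were named.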

Additional observations from a re-analysis of the deposited data

Results flagged for a closer look

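Each of the 22 genes given by value was searched for an animal that stood apart from its group, that is, whose gap to the nearest animal exceeded Dixon's 95% critical value of the range of log2 CPM. Of the 66 groups of values, 7 held such an animal, where chance would give about 3.3 (1 in 20). The 22 genes were measured in the same libraries, so the 66 groups are not independent. Of these, 4 were ND+veh replicate 4, which was lowest of its group for Fga at 2619 CPM, Fgb at 2243 CPM, Fgg at 2092 CPM and Serpinc1 at 1599.5 CPM. The next animal of the group stood at 5128, 3667, 3419 and 2235 CPM. ND+veh replicate 4 also had the highest TMM factor of the 24 libraries (1.295), which lowers each of its CPM values. Whether this scaling accounts for the low values of these genes was not tested. A further 2 were HFD+eRapa replicate 2, highest of its group for Cfi at 1244 CPM (next 789) and for Cpb2 at 579 CPM (next 351). The last was HFD+eRapa replicate 9, highest for C4b at 2636 CPM (next 2076).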

How the results depend on the processing

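Of the 23 calls among the 40 genes in the 3 comparisons, none reversed, 16 held with each library left out, and 9 held under all 9 other settings as well: C9 on HFD, C2, C6 and Mbl1 with eRapa on HFD, and C8a, C9, F11, Mbl1 and Mbl2 in HFD+eRapa against ND+veh. DESeq2 kept 23 calls and added 2, total-count scaling kept 22 and added 10, limma on FPKM kept 17 and added 10, the immune covariate kept 14 and added 1, and the endothelial, stellate cell and bile duct covariate kept 16 and added 5. The cause of each change was not tested.

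Over all genes, the counts in HFD+veh against ND+veh were 3584, and 2333 with only the groups compared, 1202 and 2008 with the immune and the endothelial, stellate cell and bile duct covariates, and 2265 with limma. In HFD+eRapa against HFD+veh they were 4432, and 943, 794 and 2558 with the covariates and limma. In HFD+eRapa against ND+veh they were 1865, and 2844, 2833 and 1216. Leaving out 1 library gave 2106 to 4479, 3269 to 5061 and 1462 to 2232, with 2106 without HFD+veh replicate 6.

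For complement in HFD+veh against ND+veh the count of 5 became 3 with no filter on low counts, 2 with the replicate block and 1 with the immune covariate, and 3 to 6 with 1 library left out. Complement in HFD+eRapa against HFD+veh went from 5 to 3 with the endothelial, stellate cell and bile duct covariate, and to 5 to 6 with 1 library left out. In HFD+eRapa against ND+veh it went from 7 to 4 with limma, and to 5 to 8 with 1 library left out. Coagulation in HFD+veh against ND+veh went from 2 to 5 with total counts, 0 with the immune covariate (3 at an unadjusted p under 0.05 in edgeR, 2 called by DESeq2) and 6 with limma, and to 1 to 6 with 1 library left out. In HFD+eRapa against HFD+veh it went from 2 to 6 with total counts, 1 with only the groups compared, 0 with the immune covariate (again 3 unadjusted, 2 by DESeq2) and 4 with limma, and to 1 to 6 with 1 library left out. In HFD+eRapa against ND+veh it went from 2 to 1 with no filter, 1 with the replicate block and 4 with the endothelial, stellate cell and bile duct covariate, and to 1 to 2 with 1 library left out.

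Groups share replicate numbers, which mark different animals and were not used as pairs in the main fit. The mean correlation of same-numbered deviations was 0.316 over 7 pairs, -0.245 over 7 and -0.203 over 8, in the order of comparisons used above. Of these pairs 5, 2 and 2 had a correlation above 0.1, and 2, 0 and 0 were best matches. Whether the numbers follow a shared order of processing was not tested. With the replicate block, called genes numbered 2461, 2532 and 1575, and 17 of the 23 calls held. The 4 lowest of the 40 in median CPM of ND+veh were F11, C2, Pros1 and F7. Whether depth limits their results was not tested.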
